A study of Mus musculus with 28 samples.

Results

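H3K9me3 domains were compared between WT and Spen KO mouse embryonic stem cells (mESCs), on the autosomes, to tell domains that were lost or gained from domains that broke into several. The members were all domains of the WT and the Spen KO list on chromosomes 1 to 19, 115940 of the 124013 domains in both lists with all sequences included. Of these, 50521 were WT domains and 65419 were Spen KO domains. A domain was called shared when at least 1 bp overlapped a domain of the other genotype, and WT-only or Spen KO-only when no base did.

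The series held 28 samples, of which 4 were H3K9me3 ChIP-seq libraries, 2 per genotype, each genotype with its own input libraries. Both genotypes are haploid mESCs of the HATX line, whose X chromosome bears an Xist transgene that doxycycline can switch on, and were grown in serum with LIF. The Spen KO cells, clone 2, lack most of the Spen gene, which encodes a protein that binds RNA and recruits corepressors, and they stand for 1 clone. Each genotype had 1 deposited H3K9me3 list, so the comparison had no replicates and no test, and a difference between the lists cannot be told apart from a difference between these cultures or libraries. As a check of the cell type, H3K4me3 peaks lay within 1000 bp of the transcription start site (TSS) of 21 of 23 core pluripotency genes in WT and of 21 in Spen KO, with Pou5f1, Sox2 and Nanog among them.

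H3K9me3 is a mark of silent chromatin. In mESCs, KRAB zinc finger proteins bind DNA and recruit TRIM28 and the methyltransferase SETDB1, which write the mark over transposable elements and imprinting control regions, and HP1 proteins then bind it. ZFP57, one of these zinc finger proteins, recognises the methylated hexamer TGCCGC at imprinted loci and helps to keep the silent allele marked.

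The sequences that follow lie under WT domains at imprinted promoters, of which some had no domain in Spen KO. Some WT-only domains had no Spen KO domain within 5000 bp and a score of at least the list median. Of these, 6 covered the TSS of a protein-coding gene, and 3 of the 6 lay at the imprinted genes Zrsr1, Nnat and Mcts2 (described below). Domains at Plagl1 and Peg3, also imprinted, were found in both genotypes. For each of 3 loci, the 250 bases outside annotated exons with the most TGCCGC are given in mm9 in the direction of the gene, with TGCCGC and its reverse complement GCGGCA in capitals. Mcts2 was in the WT list alone, and Plagl1 and Peg3 were in both lists.
Mcts2 (chr2:152512441-152512690, plus strand): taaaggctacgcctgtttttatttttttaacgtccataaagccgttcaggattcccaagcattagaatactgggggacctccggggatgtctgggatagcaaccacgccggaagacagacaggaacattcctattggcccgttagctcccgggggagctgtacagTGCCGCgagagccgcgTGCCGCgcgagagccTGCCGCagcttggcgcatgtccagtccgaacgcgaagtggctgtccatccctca
Plagl1 (chr10:12810831-12811080, plus strand): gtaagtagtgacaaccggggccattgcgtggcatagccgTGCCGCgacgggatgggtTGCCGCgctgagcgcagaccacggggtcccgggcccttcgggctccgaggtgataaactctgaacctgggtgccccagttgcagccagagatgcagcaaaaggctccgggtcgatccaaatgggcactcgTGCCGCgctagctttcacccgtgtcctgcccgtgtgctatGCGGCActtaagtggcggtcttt
Peg3 (chr7:6682641-6682890, minus strand): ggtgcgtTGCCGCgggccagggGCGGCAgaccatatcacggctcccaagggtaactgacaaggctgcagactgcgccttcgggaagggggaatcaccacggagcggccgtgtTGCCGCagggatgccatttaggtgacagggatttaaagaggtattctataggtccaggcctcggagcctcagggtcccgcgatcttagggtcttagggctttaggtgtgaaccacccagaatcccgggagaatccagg
The windows held 3 copies at Mcts2, centred at -318 bp from the TSS, 4 at Plagl1 and 3 at Peg3. Of all consecutive 250-base windows in WT domains, 1.98% held at least 1 copy on either strand and 0.00530% held at least 3, but the windows above were picked for their copies. Over whole WT domains, Nnat held 9 copies, Zrsr1 held 4 and Mcts2 held 3, while Plagl1 held 7 and Peg3 held 10. Among the 4203 WT domains of 10 to 13 kb, the median was 0 copies, 14.4% held 3 or more, 7.78% held 4 or more and 0.119% held 9 or more. The other 3 losses at a TSS held 0 (Stard3nl), 1 (Fam3b) and 1 (Gm11082), and the WT domain at the imprinted gene Igf2, which was also in the Spen KO list, held 1. These domains were narrower than 10 kb and that of Peg3 was wider than 13 kb, so the band is not their background. A wider domain can hold more copies. TGCCGC holds a CG, and the band was not matched for CG. The domains at Nnat, Mcts2 and Zrsr1 held 20.9, 18.2 and 15.2 CG per kb. Over all WT domains the median was 8.21 and the 90th percentile 14.1. The part of CG content in the copy numbers was not tested. A match shows only that these letters are present.

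WT domains covered 372.8 Mb, or 15.1% of the autosomes, and Spen KO domains covered 346.7 Mb, or 14.0%. The Spen KO list thus held more domains over fewer bases. What the score of a domain measures is not given in the sources used here. Its values fit a log2 ratio of ChIP to input times 100, and the score divided by 100 is called the log2 ratio in what follows. Its median was 1.47 in WT and 1.67 in Spen KO. The lists give no read counts and the depth of each library is unknown. Intervals given here are Wilson 95% intervals, which cover counting error only, with domains treated as independent, which neighbouring domains are not.

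WT-only domains numbered 6217, or 12.3% of the WT list (12.02 to 12.60), and Spen KO-only domains numbered 14895, or 22.8% of the Spen KO list (22.4 to 23.1). The ratio of Spen KO-only to WT-only domains was 2.40. The direction depended on list length. With both lists cut to the same number of domains by score, the ratio was 0.636, and with equal lengths on each chromosome it was 0.635. One-sided domains were narrower and weaker than shared domains in both genotypes. The median width was 3600 bp for WT-only and 5800 bp for shared WT domains, with median log2 ratios of 1.07 and 1.54. Spen KO-only domains had a median of 2600 bp and 1.22, against 4400 bp and 1.82 for shared Spen KO domains. Ranked by score, the median WT-only domain stood at percentile 28.7 of its list and the median Spen KO-only domain at percentile 24.4. From the lowest to the highest 20% of scores, the one-sided share went from 23.3% to 2.85% in WT and from 48.8% to 5.17% in Spen KO.

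**Figure D1:**
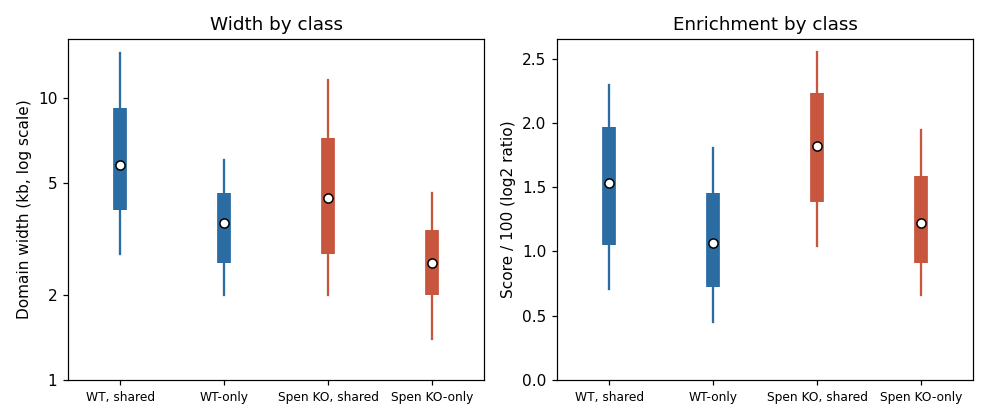
Width (kb, log scale) and score/100 (called the log2 ratio here) of shared and one-sided autosomal domains in each list. White points are medians, thick bars the middle 50% and thin lines the 10th to 90th percentiles. The one-sided classes have medians of 3600 and 2600 bp, below the shared classes at 5800 and 4400 bp.

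Splitting was separate from loss. A WT domain was called split when 2 or more Spen KO domains overlapped it. There were 6700 such WT domains, 13.3% of the list (12.97 to 13.56), of which 5624 had 2 partners, 815 had 3, 173 had 4, 53 had 5 and 35 had 6 or more, up to 10. In the mirror direction, 1863 Spen KO domains (2.85%, 2.72 to 2.98) overlapped 2 or more WT domains, up to 5. The ratio of split WT to merging Spen KO domains was 3.596 and was 3.16 in lists of equal length, and on each of 19 autosomes the split share was above the merging share. Split domains kept most of their bases. The median split WT domain had 78.8% of its bases in the Spen KO list (middle 50%, 67.6 to 87.0), and 93.9% of them kept at least 50%. Gaps inside split domains were short, with a median of 1000 bp, and 57.9% were of up to 1000 bp. The smallest distance between neighbouring domains was 800 bp in each list, so that many gaps were near the shortest that the lists can show.

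Splitting and being one-sided went opposite ways with domain width. The split share of WT domains was 1.47% at widths over 2000 and up to 4000 bp, 27.4% over 8000 and up to 16000 bp, 53.0% over 16000 and up to 32000 bp, and 77.2% (73.7 to 80.4) above that. The merging share of Spen KO domains reached 29.2% (24.5 to 34.3) in the widest class. Being one-sided ran the other way. It fell from 33.6% of WT domains up to 2000 bp wide to 0 of 605 above 32000 bp (upper limit 0.631%), and from 41.8% to 0 of 329 in Spen KO (upper limit 1.15%). A wide domain can meet more domains of any list, and the part of this in both trends was not tested.

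**Figure D2:**
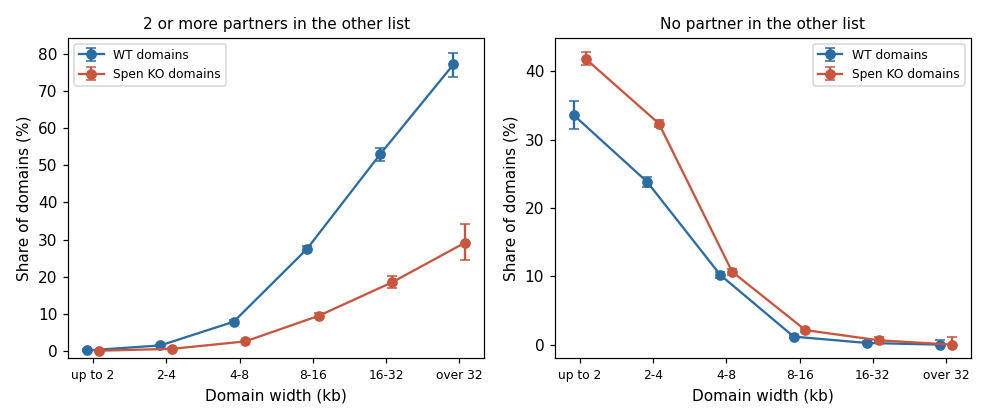
Share of domains (%) with 2 or more partners (left) and with no partner (right) in the other list, by domain width (kb). Points are the WT and Spen KO lists and bars Wilson 95% intervals. Above 32 kb, 77.2% of WT domains had 2 or more Spen KO partners and 0 of 605 had none.

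The 3 WT domains with the most Spen KO partners lay over clustered gene families. The domain at chromosome 7, 23051001 to 23386000 (335 kb), had 10 partners and kept 95.6% of its bases, and it covered vomeronasal receptor genes, Vmn1r148, Vmn1r149, Vmn1r151 and Vmn1r152 among them. Another on chromosome 7, 22140001 to 22361600 (221.6 kb), over Vmn1r129 and Vmn1r130, had 9 partners and kept 93.3%. The domain at chromosome 12, 104944801 to 105163400 (218.6 kb), had 10 partners and kept 89.0%, over Serpina1a, Serpina1b, Serpina1c and Serpina1d, which encode secreted protease inhibitors of the liver. The highest number of WT partners of a Spen KO domain was 5, found at 4 domains, and the 3 widest of these were narrower than the WT domains above, at 30 to 39 kb. One lay in Gria1, a glutamate receptor gene, at chromosome 11, 57070601 to 57109600, and the others, on chromosomes 1 and 3, were intergenic.

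The difference in list length was divided between these classes. The Spen KO list held 14898 more domains than the WT list, and one-sided domains accounted for 8678 of them (58.2%) and shared domains for 6220 (41.8%). Among shared domains, 5639 WT domains stood against 12503 Spen KO domains in groups where 1 WT domain had several partners, and 1932 WT domains against 933 Spen KO domains in groups where 1 Spen KO domain had several. The remaining groups with several domains on both sides held 1835 and 2190, and 34898 domains paired 1 to 1. In those pairs, Spen KO domains were narrower in 67.4%, with a median of 4400 bp against 5400 bp, and had the higher log2 ratio in 77.9%, with a median difference of 0.29 (middle 50%, 0.03 to 0.56).

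Counted in bases, most of what was in WT alone was the trimming of shared domains. Of 98.2 Mb covered in WT alone, 62.3 Mb (63.4%) was at the edges of shared domains, 12.1 Mb (12.3%) was in gaps inside them and 23.8 Mb (24.3%) was in whole WT-only domains. Spen KO had the reverse balance. Of 72.1 Mb in Spen KO alone, 43.4 Mb (60.2%) was in whole Spen KO-only domains and 26.2 Mb (36.3%) at edges. Both lists held 274.6 Mb. In lists of equal length, whole domains made up 43.2% of the bases in WT alone and 48.4% of those in Spen KO alone.

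**Figure D3:**
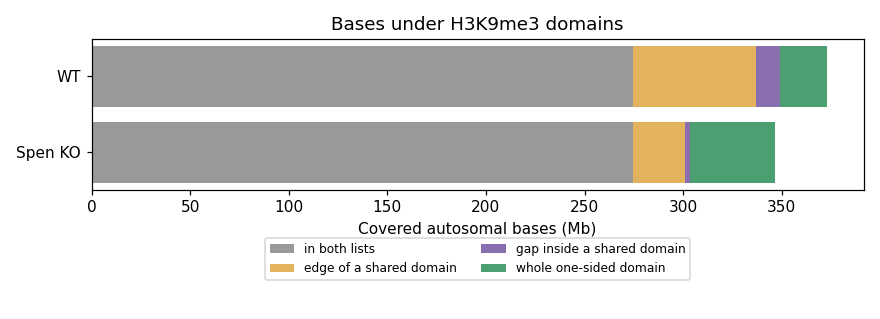
Autosomal bases (Mb) under H3K9me3 domains in each list, divided into bases in both lists, edges of shared domains, gaps inside shared domains and whole one-sided domains. The edges hold 62.3 Mb in WT and 26.2 Mb in Spen KO, and whole one-sided domains 23.8 and 43.4 Mb.

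Transposable elements and other repeats were followed by sequence copy number, as bases at which a 31-base word found at least 10 times in the genome starts. Such bases made up 10.98% of the autosomes and 33.7% of the bases in both lists. They were fewer in whole one-sided domains, at 18.6% in WT-only and 14.97% in Spen KO-only domains. Within split WT domains, the gaps were as rich in multi-copy bases (36.6%) as the bases that were kept (36.9%), while the edges held 23.2%. Domains that were at least 50% multi-copy made up 11.3% of WT-only (10.5 to 12.1) and 22.5% of shared WT domains (22.1 to 22.9), and 11.9% of Spen KO-only against 24.2% of shared Spen KO domains. The study's methods describe a standard analysis without multiply mapping reads and a further one that placed each of them at random, and which one gave these lists is not stated. The part of this in these shares was not tested.

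One-sided domains were not spread evenly over the chromosomes. WT-only domains made up 27.5% of WT domains on chromosome 17 (25.7 to 29.5), 25.6% on 16, 24.2% on 10, 23.5% on 12 and 17.1% on 4, but 3.01% on chromosome 19 (2.10 to 4.28). Spen KO-only domains made up 41.8% of Spen KO domains on chromosome 19 (39.5 to 44.1) and 33.6% on 1, but 8.31% to 9.84% on 10, 12, 16 and 17. The ratio of Spen KO-only to WT-only domains was above 1 on 15 autosomes and below 1 on 4, from 0.313 on chromosome 17 to 24.9 on 19. The median log2 ratio of Spen KO domains was 2.02 to 2.07 on chromosomes 10, 12, 16 and 17, where that of WT was 1.40 to 1.54, and on chromosome 19 it was 1.28 against 1.40. The part of chromosome copy number in these values was not tested. On the 11 autosomes whose covered bases in Spen KO were 0.9 to 1.1 times those in WT, the shares were 7.35% to 10.6% for WT-only and 21.5% to 28.03% for Spen KO-only domains. One-sided domains are part of the covered bases that chose these chromosomes, so a narrower range there follows in part from the choice. Over these chromosomes together the shares were 9.10% and 24.0% and the ratio was 3.59.

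**Figure D4:**
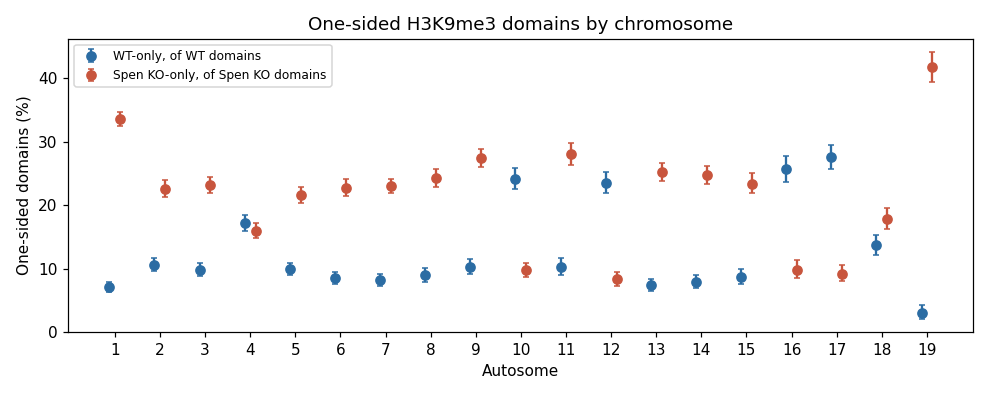
Share of one-sided H3K9me3 domains (%) on each autosome, WT-only of the WT list and Spen KO-only of the Spen KO list, with Wilson 95% intervals. Chromosomes 10, 12, 16 and 17 have more WT-only than Spen KO-only domains, and chromosome 19 has 3.01% WT-only and 41.8% Spen KO-only.

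Some one-sided domains lay close to the other list and some far from it. A domain of the other genotype was within 1000 bp of 6.10% of WT-only and 8.12% of Spen KO-only domains, and the median distance was 12000 bp and 9600 bp. To set apart clear losses and gains, one-sided domains were called isolated when the other list had no domain within 5000 bp, and strong when the score was at least the median of their own list. There were 1098 isolated strong losses and 1984 isolated strong gains, a ratio of 1.81. The ratio was 3.09 on the 11 autosomes of even coverage, where there were 512 losses and 1583 gains. It turned to 0.881 in lists of equal length, to 0.854 with equal lengths on each chromosome and to 0.791 with domains of at least 2000 bp alone, so that neither direction held throughout.

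Promoters were uncommon in every class. A TSS of a protein-coding gene lay within 1000 bp of 2.24% of WT-only domains (1.90 to 2.63) and 3.27% of shared WT domains (3.11 to 3.44), and of 1.75% of Spen KO-only (1.55 to 1.97) and 2.65% of shared Spen KO domains (2.51 to 2.79). Divided by the Mb of the domains, these TSSs numbered 5.83 in WT-only against 4.67 in shared WT domains. In Spen KO they numbered 6.11 in Spen KO-only against 4.73 in shared domains. TSSs in the 1000 bp flanks were counted but the flanks were not in the Mb. This raises the value for narrow domains, so these values do not show which class was denser in TSSs. Gene bodies were met more often by one-sided domains. At least 1 bp of a protein-coding gene was overlapped by 33.3% of WT-only (32.1 to 34.4) and 26.8% of shared WT domains, and by 30.2% of Spen KO-only and 25.3% of shared Spen KO domains. On chromosomes of even coverage, the TSS share of WT-only domains was 0.52 percentage points below that of shared domains, with an interval of the difference from -1.18 to 0.15.

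WT-only domains met H3K27Ac more often than Spen KO-only domains did. H3K27Ac, a mark of active promoters and enhancers, overlapped 2.85% of WT-only domains in the WT peak list (2.46 to 3.29) and 2.80% in the Spen KO peak list, against 1.46% of shared WT domains with either list. In Spen KO-only domains, the shares were 0.369% with the WT peak list and 0.302% with the Spen KO peak list, below shared Spen KO domains at 1.05% and 1.07%. Thus the WT-only domains met H3K27Ac as often in the WT list, where H3K9me3 was called, as in the Spen KO list. H3K4me3, a mark of active promoters, overlapped 3.76% of WT-only and 6.17% of shared WT domains in the WT peak list, and 2.18% of Spen KO-only and 4.97% of shared Spen KO domains. Peaks of H3K4me3 found in Spen KO alone overlapped 17 of the 1098 isolated strong losses (1.55%, 0.969 to 2.47) and 0.492% of shared WT domains (0.431 to 0.562). H3K4me3 peaks found in WT alone overlapped 14 isolated strong losses (1.28%, 0.761 to 2.13) and 0.971% of shared WT domains. For H3K27Ac, peaks found in Spen KO alone overlapped 25 isolated strong losses (2.28%) and 0.666% of shared WT domains. Those found in WT alone overlapped 19 (1.73%) and 0.571%, so the share was above that of shared domains with either set of peaks.

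Of 21418 autosomal protein-coding genes, 140 had a TSS within 1000 bp of a WT-only domain (0.654% of genes) and 265 within 1000 bp of a Spen KO-only domain (1.24%). Counted within the same 1000 bp, genes with a domain at the TSS in both lists numbered 1320. Those with one in WT alone numbered 433 and those with one in Spen KO alone 362. Of the 433 genes, 139 had a WT-only domain and 294 had a shared WT domain, with no Spen KO domain within 1000 bp of the TSS. Of the 362 genes, 261 had a Spen KO-only domain and 101 had a shared one. At most of the 433 promoters, the WT domain thus had a Spen KO partner that did not come within 1000 bp of the TSS. The WT domain itself need not have covered the TSS.

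Imprinted genes were among the isolated losses at promoters. Only 6 isolated strong losses covered the TSS of a protein-coding gene, and the 3 at Zrsr1, Nnat and Mcts2 were on chromosomes 11 and 2, both of even coverage. All 3 genes are expressed from the paternal allele and lie within a host gene, here Commd1 for Zrsr1, Blcap for Nnat and H13 for Mcts2. The Zrsr1 domain, at chromosome 11, 22865601 to 22878600, was 13 kb wide in WT with a log2 ratio of 2.35 (percentile 92.5 of the WT list). The nearest Spen KO domain was 56.6 kb from it. In its place the Spen KO list of H3K4me3 had 4 peaks that the WT list lacked, between 22870899 and 22877660, and H3K27Ac had 1, at 22871922 to 22873119, directly before the TSS at 22873215. Zrsr1 encodes a splicing factor of the U2AF family.

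The Nnat domain, at chromosome 2, 157379601 to 157391000, was 11.4 kb wide with a log2 ratio of 2.22 (percentile 88.4), and the nearest Spen KO domain was 10.2 kb from it. Nnat encodes neuronatin, a small membrane protein. H3K4me3 was called there in WT in 1 peak, at 157388670 to 157393662, across the far end of the domain, and in Spen KO 2 further peaks without a WT counterpart lay at 157384808 to 157386514, over the TSS, and at 157386837 to 157388019. The Mcts2 domain, at chromosome 2, 152506401 to 152516400, was 10 kb wide with a log2 ratio of 2.12 (percentile 84.0) and lay 33.2 kb from any Spen KO domain. Mcts2 is a retrocopy of a translation factor gene. One H3K4me3 peak at 152511577 to 152512566 was found in Spen KO alone, and another, 511 bp wide and past the TSS in WT, was 2126 bp wide in Spen KO and spanned the TSS. All 3 promoters therefore had H3K9me3 called in WT alone and at least 1 H3K4me3 peak called in Spen KO alone. All 6 losses at a TSS remained isolated strong losses in lists of equal length, and 4 of the 6 did in the stronger 50% of each list and 4 with isolation by 20000 bp, which the Nnat domain did not meet.

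**Figure D5:**
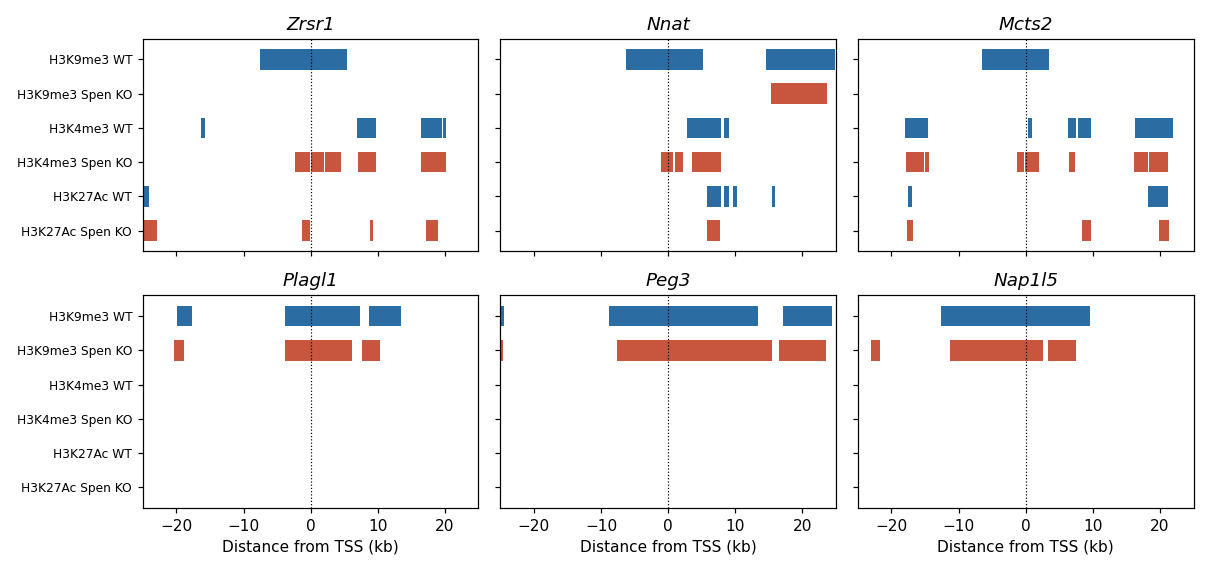
H3K9me3 domains and H3K4me3 and H3K27Ac peaks of WT and Spen KO within 25 kb of the TSS of 6 imprinted genes, drawn in the direction of the gene (x axis, distance from the TSS in kb). Zrsr1, Nnat and Mcts2 have H3K9me3 over the TSS in WT alone, and Plagl1, Peg3 and Nap1l5 have it in both genotypes.

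Most imprinted loci with H3K9me3 kept it. On the list of imprinted genes, which did not hold Mcts2, 30 were protein-coding and autosomal. Of these, 8 had a domain within 1000 bp of the TSS in both lists. Another 3 (Zrsr1, Nnat and Zim1) had one in WT alone, and 0 had one in Spen KO alone. All protein-coding genes had 6.16%, 2.02% and 1.69%. Sgce and Peg10, both among the 8, lie under the same domain in each list, so these genes are not independent loci. The lost share was 10.0% of this list, but the counts are small, and Zim1 differed only because its domain ended 1.04 kb from the TSS in Spen KO against 0.04 kb in WT. The domain at Plagl1, a growth regulator, was 11.2 kb in WT and 10 kb in Spen KO, with log2 ratios of 2.09 and 2.61. Plagl1 lies on chromosome 10, where the median log2 ratio of all domains was 1.54 in WT and 2.07 in Spen KO. At Peg3, a zinc finger gene, the domains were 22.2 and 23.2 kb (2.32 and 2.40), and at Peg10, a gene of transposon origin needed for the placenta, 5.0 and 5.2 kb (2.65 and 2.48). Nap1l5, a retrogene inside Herc3, lay under a WT domain of 22.2 kb that was split in Spen KO. The piece over the TSS was 13.8 kb wide, with log2 ratios of 1.99 for the WT domain and 2.46 for this piece. Another Spen KO domain under the same WT domain lay 3.319 to 7.519 kb after the TSS. Of 4 annotated noncoding imprinted genes, 3 had a domain over the TSS in both lists. These were Airn (18.8 and 17.4 kb), Nespas (15.8 and 14.8 kb) and H19 (32.2 and 20.8 kb), and Meg3 had none. Within gene bodies, the 4 with the widest coverage went from 58.8 to 75 kb (Kcnq1), from 56.8 to 39.4 kb (Rasgrf1), from 28.6 to 11 kb (Grb10) and from 27.6 to 17.6 kb (Snrpn).

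The other 3 losses at a TSS were at Stard3nl, a gene of endosomal membranes, at Fam3b, which encodes a secreted protein, and at Gm11082. Stard3nl had a domain of 7.2 kb in WT at chromosome 13, 19481001 to 19488200, with a log2 ratio of 2.59 (percentile 97.5), and H3K4me3 peaks over its promoter in both genotypes. Fam3b lay on chromosome 16, where Spen KO domains covered 0.661 times the bases of WT domains.

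Gains at promoters were led by Hgf, which encodes hepatocyte growth factor. Its Spen KO-only domain, at chromosome 5, 16058001 to 16059400, was 1.4 kb wide with a log2 ratio of 3.0 (percentile 98.7 of the Spen KO list), and no WT domain lay within 88.2 kb. This domain is narrow, and how many reads its ratio rests on is not known. The 250 bases before the TSS, all inside that domain, are given with CG in capitals.
Hgf (chr5:16059118-16059367, plus strand): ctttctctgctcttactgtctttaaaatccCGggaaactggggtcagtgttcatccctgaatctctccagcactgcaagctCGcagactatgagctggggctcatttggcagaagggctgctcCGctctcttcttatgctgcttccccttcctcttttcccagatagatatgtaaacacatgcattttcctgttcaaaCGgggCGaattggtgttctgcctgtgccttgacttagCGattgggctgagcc
They held 6 CG dinucleotides, where the median of 21413 promoters of this length was 9. Grxcr1, a gene of the sensory hair cell bundle, had a gain of 1.4 kb at chromosome 5, 68421801 to 68423200, with a log2 ratio of 1.86, and Vwde one of 1.4 kb at chromosome 6, 13174801 to 13176200, with 1.85. Agbl1, a tubulin deglutamylase gene, had one of 2.2 kb on chromosome 7 with 2.39. The gain at Fam165b on chromosome 16 was wider, at 9.6 kb with 2.27, and an H3K4me3 peak of 2434 bp at its TSS was in the WT list alone. The other 7 of the 12 gains at a TSS were at Rpl12-ps1, Rps13-ps1 and genes with clone names.

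The highest isolated losses and gains lay away from promoters. They are ranked by score, and how many reads each score rests on is not known. The highest loss, at chromosome 6, 123361801 to 123365600, was in an intron of Vmn2r20 with a log2 ratio of 3.93, and another in an intron of Lrp1b on chromosome 2 had 3.01. The other 3 of the top 5, on chromosomes 4, 6 and 10, were intergenic and 88.2% to 91.6% multi-copy. Of the top 5 gains, 4 were intergenic, with the highest at chromosome 14, 95875201 to 95876800 (log2 ratio 4.88, 80.2% multi-copy), and 1 was in an intron of Agbl4.

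Clustered gene families that are known to lie in H3K9me3 differed in their balance. Vomeronasal receptors, the pheromone receptors of the nose, had a domain at the TSS in both lists for 60 of 321 genes (18.7%), in WT alone for 34 (10.6%) and in Spen KO alone for 17 (5.30%). Of the 321, 8 lay at a WT-only domain and 8 at a Spen KO-only domain, both above the shares of all protein-coding genes (0.654% and 1.24%). Averaged over these genes, WT domains covered 28.03% of the gene body and Spen KO domains 19.5%. The gap was smaller over all bases of these bodies together, of which WT domains covered 25.6% and Spen KO domains 22.2%. Of 1106 olfactory receptor genes, 102 were in both lists (9.22%), 34 in WT alone (3.07%) and 52 in Spen KO alone (4.70%), where all protein-coding genes had 6.16%, 2.02% and 1.69%. At a Spen KO-only domain lay 37 of them and at a WT-only domain 4, where the shares of all genes were 1.24% and 0.654%. Scores of these Spen KO-only domains ran from percentile 0.732 (Olfr1412) to 88.8 (Olfr441) of their list, and most were below its median. Those of the WT-only domains ran from percentile 16.4 (Olfr1340) to 59.8 (Olfr143) of the WT list. For the Zfp zinc finger genes, whose 3′ exons are a known site of the mark, 24 of 362 were in both lists (6.63%), 7 in WT alone and 5 in Spen KO alone, near the shares of all genes. The widest coverage of a gene body was at Zfp536, with 44.8 kb in WT and 62 kb in Spen KO, and at Zfp618, with 44 and 28 kb.

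The Zfp genes at WT-only domains were Zfp60, Zfp809, Zfp873 and Zfp958, and those at Spen KO-only domains were Zfp114, Zfp772 and Zfp950, named after their values were seen. Zfp809, which directs TRIM28 to the primer binding site of certain retroviruses, had a WT-only domain of 3.6 kb at chromosome 9, 22031001 to 22034600. The domain started 727 bp after the TSS and lay 12.6 kb from any Spen KO domain. Its log2 ratio of 1.40 stood at percentile 46.5 of the WT list. Zfp809 was also the only gene of the silencing machinery list (25 genes) with a domain at the TSS in WT alone. That is 4% of the list, where all protein-coding genes had 2.02%. Atf7ip, a SETDB1 partner, was in both lists, and Morc3 had 4.4 kb in its body in WT and 0 in Spen KO. Morc3 lies on chromosome 16, where Spen KO domains covered 0.661 times the bases of WT domains.

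Of all protein-coding genes, 90.1% had no domain at the TSS in either list, and regulators of the mESC state were near this share. Of 23 core pluripotency genes, 22 (95.7%) had none, 0 had one in both lists and 1, Nanog, had one in WT alone. That domain, at chromosome 6, 122655001 to 122656800, was 1.8 kb wide with a log2 ratio of 1.28 (percentile 40.1) and ended 707 bp before the TSS, 60.4 kb from any Spen KO domain. In the gene body, Esrrb, a nuclear receptor gene, went from 20 to 3.4 kb and Tcl1, an AKT coactivator gene, from 2.43 to 0 kb, both on chromosome 12, where Spen KO domains covered 0.674 times the bases of WT domains. Stat3 had 6 and 7 kb. Of 40 Hox genes, 24 early lineage regulators and 16 genes of Spen and its corepressor partners, 0 had a domain at the TSS in either list, where 90.1% of all protein-coding genes had none.

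The lists that follow are short, and their counts stand beside 6.16% of all protein-coding genes in both lists, 2.02% in WT alone and 1.69% in Spen KO alone. Of 26 germline genes silenced in mESCs, 2 (D1Pas1 and Fkbp6) were in both lists, 1 (Syce1) was in WT alone and 2 (Mael and Mov10l1) were in Spen KO alone. Mael, a gene of the piRNA pathway, had a Spen KO-only domain of 4.0 kb at chromosome 1, 168164801 to 168168800, with a log2 ratio of 1.39. On chromosome 1, Spen KO domains covered 1.20 times the bases of WT domains. The domain at Mov10l1, the piRNA helicase gene, was weaker at 0.85. Of 18 genes of the 2-cell-like state, 7 were in both lists, among them Obox1, Obox2, Obox3, Obox5 and Zscan4b, and the Obox3 body had 150.1 kb in WT and 142.7 kb in Spen KO. Obox6 was in WT alone and Tdpoz1 in Spen KO alone. Of 67 histone cluster genes, 1 (Hist1h4m) was in both lists and 1 (Hist1h2al) in WT alone, and of 24 clustered protocadherin genes 0 were in either.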

How the data were processed

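ChIP-seq of WT and Spen KO (clone 2) HATX mESCs was analysed from deposited domain and peak lists. In the study's methods, read pairs were aligned by the authors to mm9 using Bowtie2, multiply mapping reads were left out of the standard analysis and placed at random in a further one, Picard removed duplicates, MACS2 called peaks against input, and libraries are described as technical replicates. The deposited H3K9me3 lists hold joined 200 bp windows, a score, not defined in the sources, whose values fit log2(ChIP/input) multiplied by 100, and a p-value of up to 0.05. Their caller and pooling are not given in the sources used here. For H3K4me3 and H3K27Ac, the authors filtered peaks by reproducibility between libraries, and only deposited peak positions and widths were used. Oct4 lists were not used here. Depth is unknown.

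Domain ends, which close on the last base of a window, were moved by 1 bp. Overlaps were computed in Python 3.11.15 with pandas 2.3.3 and numpy 2.4.6, checked on simulated intervals, and Wilson intervals were taken at 95%. Gene positions are from GENCODE vM1 (mm9), and the TSS is the 5′ end of the gene record. Multi-copy bases are those at which a 31-base word with at least 10 copies starts. Named genes were protein-coding genes with a TSS inside an isolated strong loss or gain (at most 15 of each by score, those on chromosome 18 or with clone names last), and for each gene list those with the widest covered bodies. Named domains were the 5 highest isolated losses and gains and the 3 with the most partners in each direction. Genes named outside these rules, such as Plagl1, Peg3, Peg10, Nap1l5, Zim1, Zfp809, Morc3, Nanog, Mael and the genes under the domains with several partners, were chosen after their values were seen. The members and gene lists were chosen with earlier results of these data known. The alternatives of even chromosome coverage and of equal length on each chromosome, the sequences, the TGCCGC counts and Mcts2 as an imprinted gene were added after seeing the data.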

Additional observations from a re-analysis of the deposited data

How the results depend on the processing

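No paired analysis was possible because each genotype had 1 H3K9me3 list, which also left no library to leave out. The cause of each change was not tested. The ratio of Spen KO-only to WT-only domains (2.40) was 1.40 with domains of at least 2000 bp, 3.86 with equal covered bases, 0.636 in lists of equal length and 0.635 with equal length on each chromosome. It stayed within 1.5 times of 2.40 under the other 7 alternatives run for it. The WT-only share (12.3%) was 13.3% with 50% overlap, 11.6% with gaps of up to 1000 bp allowed, 16.3% in the stronger 50%, 24.5% in lists of equal length, 24.5% with equal length on each chromosome, 10.8% with equal covered bases, 17.1% with domains of at least 2000 bp, 11.8% with the X chromosome and 9.10% on chromosomes of even coverage. In the same order, the Spen KO-only share (22.8%) was 24.4%, 20.9%, 27.1%, 15.6%, 15.6%, 28.8%, 20.5%, 23.2% and 24.0%. The ratio of split to merging domains (3.596) was 5.50 with 50% overlap, 2.16 with gaps allowed and 5.43 in the stronger 50%, and was above 1 in each alternative run. The ratio of isolated strong gains to losses (1.81) was 3.09 on chromosomes of even coverage, 0.881 in lists of equal length, 0.854 with equal length on each chromosome and 0.791 with domains of at least 2000 bp.

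Whole domains as a share of the bases in WT alone (24.3%) were 25.8% with 50% overlap, 43.2% in lists of equal length, 22.8% after merging domains within 1000 bp and 20.2% on chromosomes of even coverage, and in Spen KO alone (60.2%) they were 64.1%, 48.4%, 55.4% and 60.3%. The difference in TSS share between WT-only and shared domains (-1.03 points) was -0.53 in lists of equal length and -0.52 on chromosomes of even coverage, and that of Spen KO-only domains (-0.90) was -2.01 with a TSS within 5000 bp. The difference in gene body share (6.45 points in WT, 4.88 in Spen KO) was 10.8 and 3.91 in lists of equal length and 7.73 and 5.93 with at least 50% of the domain in a gene body, and for WT 8.07 on chromosomes of even coverage. Without read counts, whether a one-sided domain lay just below the threshold in the other genotype cannot be told.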
